A study of Mus musculus with 6 samples.

Results

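The miR-125 and miR-99/100 families are described here in mouse spinal cord. They comprise 5 mature miRNAs, mmu-miR-125a-5p, mmu-miR-125b-5p, mmu-miR-99a-5p, mmu-miR-99b-5p and mmu-miR-100-5p, taken by name from the 1482 rows of a small RNA read-count table. All 5 were found. There were 3 libraries labelled SCI, from mice with laminectomy and a moderate contusion at T10 (a 10 g weight falling 20 mm), and 3 labelled control, from mice with laminectomy alone. All mice received antibiotics and were killed on day 2 after surgery, so both groups carry the surgical wound. Contused mice were kept only if their hind limbs were paralysed. Strain, sex and age were not found in the labels. About 1 cm of cord around T10 was used, and each library was made from 3 µg of total RNA. The tissue is bulk cord, in which fewer cells of a type and less RNA per cell cannot be told apart.

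miRNAs are short RNAs that guide Argonaute proteins to messenger RNAs, mainly by pairing of their seed, bases 2 to 8. miR-125 is the vertebrate counterpart of lin-4, the first miRNA described in Caenorhabditis elegans, and its targets include Lin28a, whose protein blocks maturation of let-7. The miR-99/100 family is an old one among animals, and Mtor is among its reported targets in mammalian cells. In vertebrates both families lie in shared transcription units with let-7. Such a unit, a polycistron, can yield several miRNAs from 1 primary transcript, after which each hairpin is cut out and 1 arm is mostly kept.

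Mature sequences were available for all 5 miRNAs in RefSeq (GRCm38.p6). They are shown because the results turn on which family members differ at few bases. Capitals mark the seed.
miR-125a-5p: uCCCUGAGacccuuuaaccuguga
miR-125b-5p: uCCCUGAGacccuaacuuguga
miR-99a-5p: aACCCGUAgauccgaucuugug
miR-100-5p: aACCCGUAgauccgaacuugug
miR-99b-5p: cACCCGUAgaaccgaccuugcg
Both miR-125 sequences shared the seed CCCUGAG and their first 13 bases, with lengths of 24 bases for miR-125a-5p and 22 for miR-125b-5p. The other 3 shared the seed ACCCGUA. With positions counted from 1 at the 5′ end and the base of miR-99a-5p given first, miR-100-5p differed at 1 position, U16A. On the same terms miR-99b-5p differed at 4 positions, A1C, U11A, U16C and U21C. The mismatch allowance of the alignment is not given in the sources used here, so reads with a sequencing error at position 16 may have been counted for the other of miR-99a-5p and miR-100-5p.

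The 5 miRNAs come from 6 hairpins in 3 polycistrons, all on the plus strand, with positions from GENCODE M21 on GRCm38. On chromosome 9, Mir100 (41531425 to 41531504) is followed after 5211 bases by Mirlet7a-2 and after a further 45114 bases by Mir125b-1 (41581926 to 41582002). All 3 hairpins lie within the noncoding genes 3110039I08Rik and Gm49317, outside their annotated exons. Mir125b-1 also overlaps an exon of Gm28119. On chromosome 16, Mir99a (77598936 to 77599000) is followed after 656 bases by Mirlet7c-1 and after a further 46522 bases by Mir125b-2 (77646273 to 77646343). These lie in introns of Mir99ahg, a noncoding host gene, and Mir125b-2 also overlaps an exon of C130023A14Rik. On chromosome 17, Mir99b (17830188 to 17830257), Mirlet7e and Mir125a (17830812 to 17830879) fall within 692 bases. Mir99b and Mirlet7e are intronic in the protein-coding gene Spaca6, and Mir125a overlaps an annotated exon of it. miR-125b-5p has the same sequence from Mir125b-1 and Mir125b-2, so its count is a sum over chromosomes 9 and 16.

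**Figure D1:**
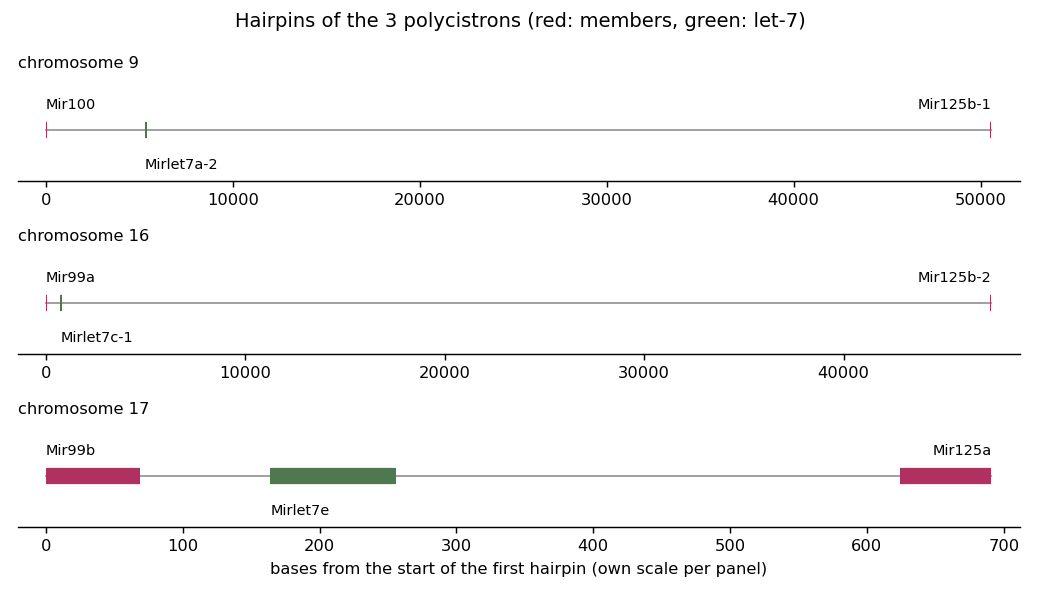
Positions of the hairpins in the 3 polycistrons, in bases from the start of the first hairpin of each, with a scale of its own per panel. The chromosome 17 unit spans 692 bases, against 50578 on chromosome 9 and 47408 on chromosome 16.

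Total counts were 7100472 to 8889977 in the SCI-labelled libraries and 5568491 to 7360149 in the control-labelled ones. The labels were checked against miRNAs of known source, and these went against them. miR-21a-5p, which rises in injured tissue, was at 11198 to 12741 CPM (counts scaled to library size by the TMM method) in the SCI-labelled libraries and at 75102 to 129161 CPM in the control-labelled ones. All 4 leukocyte markers were detected in every library, and their summed level was 152 to 263 CPM in SCI-labelled and 1501 to 2697 CPM in control-labelled libraries. The deposited columns of the SCI-labelled libraries have headers beginning with Normal. The groups are therefore named by their labels throughout, as libraries labelled SCI and control, and every direction is that of the labels. Control-labelled library 3 stood apart in skeletal muscle markers, whose summed level was 37664 CPM there, 8273 and 11902 CPM in control-labelled libraries 1 and 2, and 9779 to 20394 CPM in SCI-labelled libraries. Spinal cord markers were present in all libraries: the 4 neuron markers summed to 29184 to 34974 CPM in SCI-labelled and 11540 to 14206 CPM in control-labelled libraries. This sum was carried by miR-128-3p and miR-218-5p, the 2 of the 4 that passed the test (log2 changes 1.46 and 1.42), while miR-124-3p (-0.52) and miR-137-3p (0.79) did not pass (edgeR adjusted p = 0.339 and 0.173). miR-124-3p was highest in control-labelled library 3, at 2008 CPM. The 3 oligodendrocyte markers summed to 9582 to 10498 CPM in SCI-labelled and 8049 to 10923 CPM in control-labelled libraries. Most of this sum was miR-219a-2-3p, which was lowest in control-labelled library 3, at 7013 CPM. miR-219a-5p went the other way, and was highest in that library (335 CPM, against 69.7 to 139 CPM in the others). The 3 red cell markers summed to 2443 to 5157 CPM in SCI-labelled and 8995 to 32182 CPM in control-labelled libraries. No marker was at 0 in any library.

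The families were abundant, and most of their reads came from miR-99a-5p and miR-100-5p, which held 89.1 to 90.4% of them in the SCI-labelled libraries and 81.3 to 87.6% in the control-labelled ones. The 5 miRNAs held 10.5% ± 0.222 of all counts in the SCI-labelled libraries and 8.05% ± 0.718 in the control-labelled ones (SD, n = 3 each). The groups did not overlap (exact two-sided permutation p = 0.1, the smallest that 3 libraries against 3 can give). The miR-99/100 family made up 9.81% ± 0.279 of counts in SCI-labelled and 7.28% ± 0.845 in control-labelled ones, again without overlap (SD, n = 3 each; exact permutation p = 0.1). Its members did not share this difference equally. With scaling by library totals only, the log2 change was 0.66 for miR-99a-5p, 0.19 for miR-100-5p and -0.24 for miR-99b-5p. Groups without overlap were common, at 51.3% of all rows by CPM. The miR-125 family made up 0.663% ± 0.0578 in SCI-labelled and 0.774% ± 0.161 in control-labelled libraries, with overlapping groups (SD, n = 3 each; exact permutation p = 0.4).

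The order of the levels was the same in all 6 libraries, namely miR-99a-5p, miR-100-5p, miR-125b-5p, miR-99b-5p and miR-125a-5p. The first of these ranked 4 and the last 81 among the 614 rows tested, by mean CPM over the libraries. The steps from miR-100-5p to miR-125b-5p and from miR-99b-5p to miR-125a-5p were larger than the spread between libraries. In the control-labelled group miR-99a-5p and miR-100-5p overlapped, and miR-125b-5p and miR-99b-5p were close. Small RNA libraries capture each sequence with its own efficiency, so levels of different miRNAs are compared here only as read counts; the sequences are of nearly equal length.

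miR-99a-5p, the chromosome 16 member of the miR-99/100 family, was the only 1 of the 5 that passed the test between the groups. It was at 53891, 63500 and 64266 CPM in SCI-labelled libraries 1, 2 and 3, against 45696, 38654 and 25819 CPM in control-labelled libraries 1, 2 and 3. Every SCI-labelled library was above every control-labelled one, and the lowest value was that of control-labelled library 3. The group means were 60552 ± 5781 CPM and 36723 ± 10078 CPM (SD, n = 3 each), a 1.65-fold higher level in the SCI-labelled libraries (log2 change 0.72, SE 0.23; edgeR quasi-likelihood adjusted p = 0.0366 over 614 rows). Across all rows, 39.4% passed this test, 16.3% as higher and 23.1% as lower, so 1 of 5 is no more than the share among all miRNAs. The groups did not overlap in 51.3% of all rows, against 1 of the 5 miRNAs.

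The call of miR-99a-5p was lost without any 1 of 4 of the 6 libraries. Without SCI-labelled library 1, 2 or 3 the edgeR adjusted p was 0.0571, 0.117 and 0.114, and without control-labelled library 2 it was 0.0791. It stayed below the threshold of 0.05 without control-labelled library 1 (0.0195) and without control-labelled library 3 (0.013), where the log2 change was 0.56. With the counts of miR-99a-5p and miR-100-5p summed as 1 row, a choice made after seeing the data, the log2 change was 0.54 and the adjusted p 0.0613. With the same labels, 2 of 4 neuron markers passed as higher, and all 4 leukocyte and all 3 red cell markers as lower. Their part in the difference was not tested.

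miR-100-5p, which differs from miR-99a-5p at 1 base and lies on chromosome 9, did not pass the test. It was at 35541, 40050 and 33064 CPM in the SCI-labelled libraries and at 34751, 30382 and 25470 CPM in the control-labelled ones. SCI-labelled library 3 and control-labelled library 1 lay inside the range of the other group. The log2 change was 0.26 (SE 0.18, 95% interval -0.16 to 0.68; edgeR adjusted p = 0.293).

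miR-99b-5p, the chromosome 17 member, had the opposite sign and did not pass. Its levels were 3796, 4713 and 4202 CPM in the SCI-labelled libraries and 5220, 4582 and 4377 CPM in the control-labelled ones, and the groups overlapped. The log2 change was -0.16 (SE 0.17, 95% interval -0.55 to 0.24; edgeR adjusted p = 0.502).

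Neither miR-125 member passed. miR-125b-5p, which is reported to act on Lin28a and on regulators of apoptosis, was at 5791, 5943 and 5280 CPM in the SCI-labelled libraries and at 5320, 7387 and 6524 CPM in the control-labelled ones. Control-labelled libraries 2 and 3 were above, and library 1 within, the range of the SCI-labelled group. The log2 change was -0.18 (SE 0.18, 95% interval -0.59 to 0.24; edgeR adjusted p = 0.478). miR-125a-5p, its paralog on chromosome 17, was at 1316, 1219 and 888 CPM in the SCI-labelled libraries and at 894, 1456 and 910 CPM in the control-labelled ones. The groups overlapped widely, with SCI-labelled library 3 lowest and control-labelled library 2 highest of all. Its log2 change was 0.07 (SE 0.26, 95% interval -0.51 to 0.65; edgeR adjusted p = 0.834), and by library totals it was -0.0032, so no sign can be given to it. The median log2 change was 0.07 over the 5 miRNAs and -0.07 over all rows tested.

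**Figure D2:**
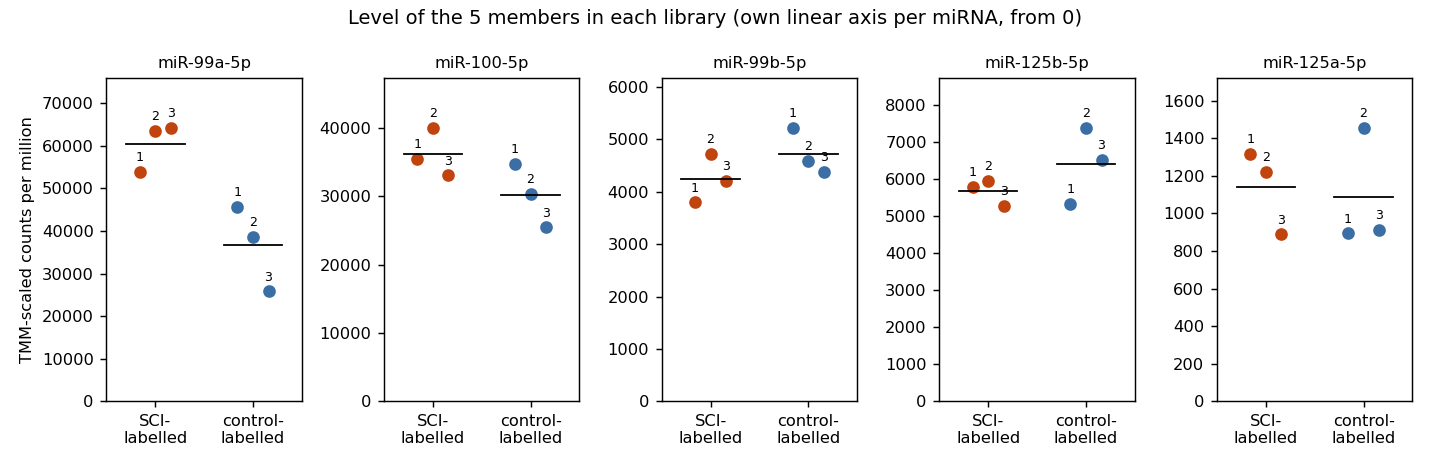
TMM-scaled CPM of the 5 miRNAs in each library, with the library number beside each point and a bar at the group mean; each panel has its own axis from 0. For miR-99a-5p the 3 SCI-labelled libraries (53891 to 64266 CPM) lie above the 3 control-labelled ones (25819 to 45696 CPM), and in the other 4 panels the groups overlap.

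Ratios between miRNAs of 1 library do not depend on the scaling, and they were used first to compare the 3 members of the miR-99/100 family. The count of miR-99a-5p was 14.2, 13.5 and 15.3 times that of miR-99b-5p in SCI-labelled libraries 1, 2 and 3, and 8.75, 8.44 and 5.90 times in control-labelled libraries 1, 2 and 3. Each SCI-labelled ratio was above each control-labelled one, a difference of 0.92 on the log2 scale (SE 0.19). The ratio of miR-99a-5p to miR-100-5p was 1.52, 1.59 and 1.94 in the SCI-labelled libraries and 1.31, 1.27 and 1.01 in the control-labelled ones, a log2 difference of 0.49 (SE 0.16). That of miR-100-5p to miR-99b-5p was 9.36, 8.50 and 7.87 in the SCI-labelled libraries and 6.66, 6.63 and 5.82 in the control-labelled ones, a log2 difference of 0.43 (SE 0.10). In all 3 ratios the groups were apart, each with an exact permutation p of 0.1, the smallest possible, and 0.275 adjusted over the 22 ratios computed. The 3 ratios are not independent, since the first is the product of the others. Over the 10 ratios among the 5 miRNAs the groups were apart in 4, against 51.3% of all rows by CPM. Also apart was that of miR-99a-5p to miR-125b-5p. It was 9.31, 10.7 and 12.2 in the SCI-labelled libraries and 8.59, 5.23 and 3.96 in the control-labelled ones (log2 difference 0.92, SE 0.35). The shift of miR-99a-5p was thus not confined to its family, and its ratios reuse the counts behind its difference in level.

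In the fit over all seed families, which tests each miRNA against its whole family, itself included, 0 of the 5 passed. A member with many of the family's reads is thereby drawn towards the family value. The result for miR-99a-5p therefore does not show that it moved like its relatives. That fit held 131 miRNAs in 50 families, of which 13.7% passed. miR-99b-5p lay 0.65 below its family on the log2 scale (log2 difference -0.65; unadjusted p = 0.0171, diffSpliceDGE adjusted p = 0.102). It was the only 1 of the 5 with an unadjusted p under 0.05, and miR-99a-5p (0.23) and miR-100-5p (-0.23) lay on either side of the family (adjusted p = 0.804 and 0.799). In the miR-125 family, which here includes miR-351-5p with the same seed, miR-125a-5p was at 0.21 and miR-125b-5p at -0.04 (adjusted p = 0.850 and 0.997). The ratio of miR-125b-5p to miR-125a-5p was 4.40, 4.87 and 5.94 in the SCI-labelled and 5.95, 5.07 and 7.17 in the control-labelled libraries (exact permutation p = 0.2), with overlapping groups.

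Of 6 ratios to the let-7 of the same polycistron, the groups were apart in 3, those of the miR-99/100 members. They overlapped in those of the miR-125 members, where the count of miR-125b-5p is summed over the chromosome 9 and 16 units. For comparison, the groups did not overlap in the CPM of 51.3% of all rows, so 3 of 6 is near that share. No ratio passed after adjustment of the exact permutation p (0.275 at the lowest). In the chromosome 16 unit, miR-99a-5p was 4.97, 4.49 and 4.73 times as frequent as let-7c-5p in the SCI-labelled libraries, and 3.83, 2.41 and 1.95 times in the control-labelled ones. The groups were apart by 0.85 on the log2 scale (SE 0.29; exact permutation p = 0.1). let-7c-5p itself, which is also made from a hairpin outside the 3 units, had a log2 change of -0.10 (edgeR adjusted p = 0.721; 0.012 with the upper quartile). In the chromosome 9 unit, miR-100-5p was 6.46, 6.11 and 5.06 times as frequent as let-7a-5p in the SCI-labelled libraries and 4.90, 2.80 and 3.29 times in the control-labelled ones. This is a log2 difference of 0.72 (SE 0.26; exact permutation p = 0.1), with the groups apart. let-7a-5p, which has further hairpins elsewhere, was at 5499, 6553 and 6535 CPM in the SCI-labelled libraries and at 7099, 10858 and 7738 CPM in the control-labelled ones. Its groups were apart too, with a log2 change of -0.47 (edgeR adjusted p = 0.113), and it passed without control-labelled library 3 (-0.49, 0.0492).

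In the chromosome 17 unit, all of whose 5p arms come from 1 hairpin each, the ratio went the other way. miR-99b-5p was 2.32, 2.66 and 2.50 times as frequent as let-7e-5p in the SCI-labelled libraries and 3.61, 2.91 and 2.82 times in the control-labelled ones. The log2 difference was -0.31 (SE 0.13; exact permutation p = 0.1), with the groups apart. let-7e-5p was at 1635, 1774 and 1683 CPM in the SCI-labelled libraries and at 1446, 1576 and 1551 CPM in the control-labelled ones. Its log2 change was 0.16 (edgeR adjusted p = 0.476), although each SCI-labelled library was above each control-labelled one. The ratio of miR-125a-5p to let-7e-5p had overlapping groups (log2 difference -0.07, exact permutation p = 0.8). So did the ratios of miR-125b-5p to let-7c-5p (-0.07, 0.7) and to let-7a-5p (0.28, 0.2).

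**Figure D3:**
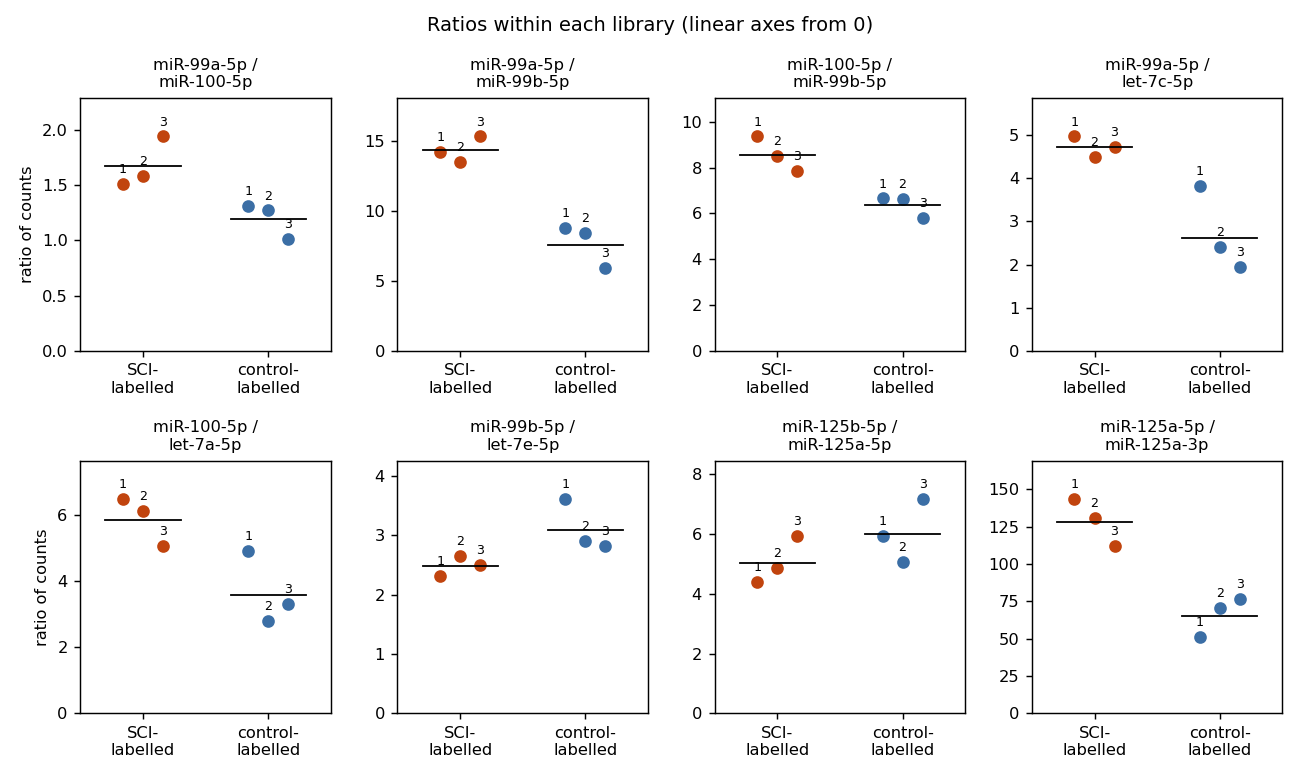
Ratios of raw counts within each library, with the library number beside each point and a bar at the geometric mean; all axes start at 0. The groups are apart in 7 of the 8 panels, which were picked by hand. Left out are overlapping ratios that the text also describes, and also a ratio with the groups apart. Over all 22 ratios computed they were apart in 8 and overlapped in 14.

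The 3p arms of the 6 hairpins were much rarer than the 5p arms. Of these arms 1 passed the test, as lower, which is no more than the share among all rows (39.4% passed, 23.1% as lower). miR-125a-3p, the arm opposite miR-125a-5p, was lower in the SCI-labelled libraries, with 74, 60 and 70 counts there (9.17, 9.30 and 7.93 CPM) against 109, 114 and 101 counts (17.5, 20.6 and 11.9 CPM) in the control-labelled ones. Every SCI-labelled library was below every control-labelled one. The log2 change was -0.92 (SE 0.26; edgeR adjusted p = 0.0248), while miR-125a-5p stood at 0.07. The edgeR call was lost when any library other than control-labelled library 3 was left out, with adjusted p-values of 0.0809, 0.0931 and 0.107 without SCI-labelled library 1, 2 and 3 and of 0.078 and 0.0685 without control-labelled library 1 and 2, and with the upper quartile (0.053). It was 0.00155 without control-labelled library 3. The arms are shown in capitals in the Mir125a hairpin (RefSeq, GRCm38.p6, chr17:17830812-17830879, plus strand), the 5p arm first.
Mir125a: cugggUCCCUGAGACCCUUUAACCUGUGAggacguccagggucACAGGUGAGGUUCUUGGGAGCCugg

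The 2 arms of Mir125a stood in a ratio of 143, 131 and 112 counts of 5p for each 3p count in the SCI-labelled libraries, against 51.2, 70.6 and 76.5 in the control-labelled ones. The groups were apart by 0.98 on the log2 scale (SE 0.21; exact permutation p = 0.1). In the fit over 202 hairpins and 418 arms, of which 8.37% passed, miR-125a-3p had an adjusted p of 0.0508 by diffSpliceDGE (log2 -0.97 relative to its hairpin), just over the threshold. Without control-labelled library 3 the adjusted p was 0.00947, and without each of the others it was 0.0658 to 0.293.

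The other 3p arms did not pass the test of level or of arm use. miR-125b-1-3p, from chromosome 9, was at 194, 183 and 227 CPM in the SCI-labelled libraries and at 399, 280 and 168 CPM in the control-labelled ones, where library 3 was lowest of all and libraries 1 and 2 highest (log2 change -0.49, edgeR adjusted p = 0.247). Without control-labelled library 3 it passed, at -0.72 (0.0126). miR-125b-2-3p, from chromosome 16, was at 127, 95.3 and 122 CPM in the SCI-labelled and 98.2, 90.7 and 134 CPM in the control-labelled libraries (log2 change 0.09, adjusted p = 0.777; -0.0023 by library totals). The 3p arms differ between the 2 hairpins where the 5p arm does not, and miR-125b-1-3p was above miR-125b-2-3p in every library.

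miR-99b-3p was at 125, 159 and 134 CPM in the SCI-labelled and 217, 179 and 139 CPM in the control-labelled libraries, with overlapping groups (log2 change -0.36, edgeR adjusted p = 0.253). For miR-100-3p there were 40, 23 and 47 counts in SCI-labelled libraries, against 16, 14 and 28 counts in control-labelled libraries. Its CPM did not overlap between the groups (log2 change 0.71, edgeR adjusted p = 0.093), and it passed without control-labelled library 3 (0.91, 0.0357). For miR-99a-3p there were 12, 7 and 15 counts in SCI-labelled libraries, against 5, 8 and 41 counts in control-labelled libraries. Its log2 change was -0.77 (edgeR adjusted p = 0.357). Without control-labelled library 3 it was 0.42 (adjusted p = 0.493), and with limma voom 0.12.

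Of the 7 let-7 arms tested, only the 3p arm of let-7c-1 passed the test, against 39.4% of all rows. let-7c-1-3p, which marks the chromosome 16 unit, was at 8.55, 7.91 and 8.27 CPM in the SCI-labelled libraries and at 14.4, 15.8 and 10.7 CPM in the control-labelled ones, with no overlap. It was thus lower (log2 change -0.72, SE 0.24; edgeR adjusted p = 0.042) where miR-99a-5p of the same unit was higher. This call was lost with RLE scaling (0.0551), the upper quartile (0.104), no filter (0.162), DESeq2 (0.0566), the most abundant rows left out (0.0514), the replicate block (0.0943) and without any library but control-labelled library 3 (0.0964 to 0.174). The other 3p arms of let-7 had log2 changes of -0.13 for let-7a-1-3p, -0.22 for let-7a-2-3p and -0.22 for let-7e-3p, none past the test (edgeR adjusted p = 0.659, 0.611 and 0.505). Their signs turned when 1 library was left out, and that of let-7a-1-3p also with the upper quartile. let-7a-1-3p has the same mature sequence as let-7c-2-3p, so its row cannot be assigned to 1 hairpin. The read-count table holds no row named let-7c-2-3p.

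**Figure D4:**
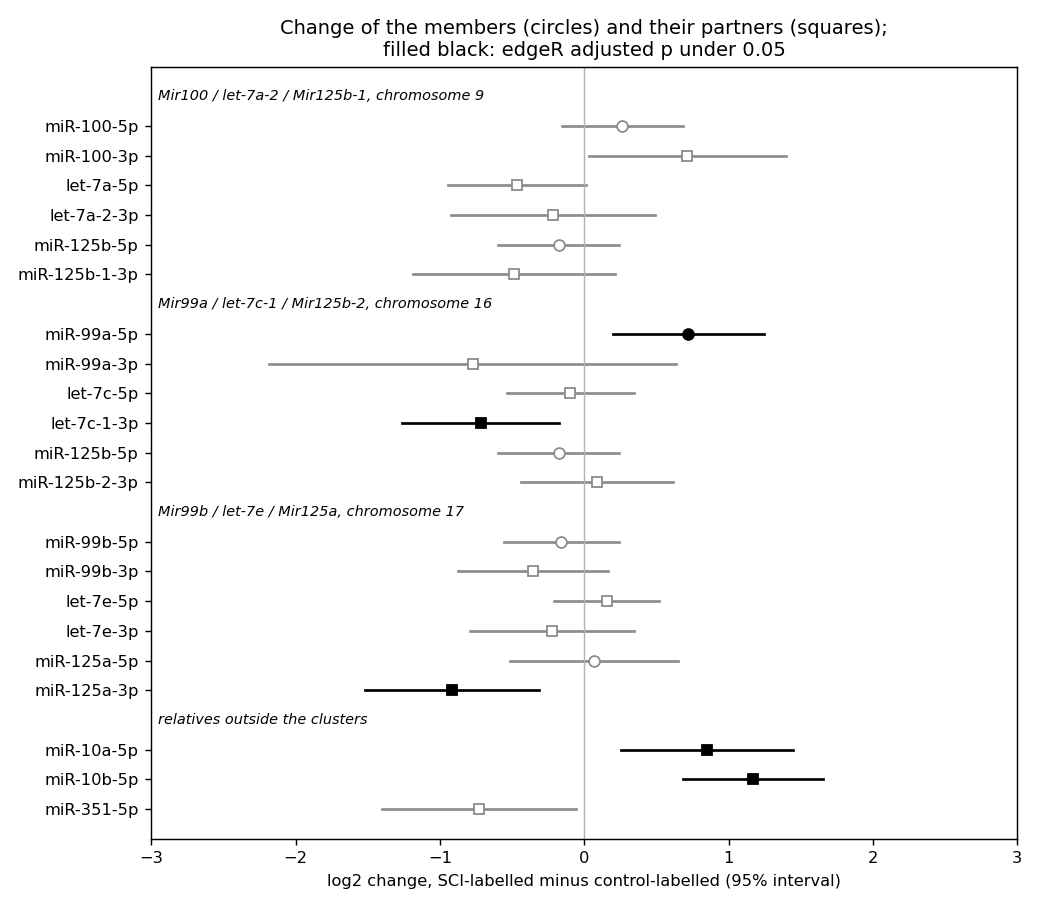
Log2 change, SCI-labelled minus control-labelled, with 95% intervals from the edgeR fit, for the 5 miRNAs (circles) and the rows that share their hairpins, polycistrons, seed or sequence (squares); filled black marks an adjusted p under 0.05. miR-99a-5p (0.72), miR-10a-5p (0.85) and miR-10b-5p (1.17) are filled on the positive side, and miR-125a-3p (-0.92) and let-7c-1-3p (-0.72) on the negative side; miR-125b-5p stands in 2 groups because it has 2 hairpins, and the signs of miR-125a-5p and miR-125b-2-3p (library totals) and of let-7c-5p (upper quartile) turn with the scaling.

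The nearest relatives of miR-99/100 by sequence are miR-10a and miR-10b, which lie in Hox gene clusters and carry a seed of their own. Their sequences are given for comparison with miR-100-5p above, with the seed in capitals.
miR-10a-5p: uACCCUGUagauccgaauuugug
miR-10b-5p: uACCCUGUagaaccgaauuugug
miR-100-5p shared an unbroken run of 11 bases with miR-10a-5p, and miR-99b-5p one of 10 bases with miR-10b-5p, in each case starting at position 6 of miR-100-5p or miR-99b-5p and at position 7 of miR-10. miR-10a-5p was at 40826, 52930 and 37645 CPM in the SCI-labelled and 31588, 24757 and 16453 CPM in the control-labelled libraries. It was 1.81-fold higher (log2 change 0.85, SE 0.26; edgeR adjusted p = 0.0321), with control-labelled library 3 lowest as for miR-99a-5p. This call was lost without control-labelled library 2 (0.0813) or SCI-labelled library 1, 2 or 3 (0.0605, 0.126 and 0.063). miR-10b-5p was at 160375, 175935 and 132934 CPM in the SCI-labelled and 80640, 74637 and 53273 CPM in the control-labelled libraries, 2.25-fold higher (log2 change 1.17, SE 0.21; edgeR adjusted p = 0.0033).

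miR-351-5p shares the miR-125 seed but lies on the X chromosome, outside the 3 units. It was at 18.0, 32.7 and 25.8 CPM in the SCI-labelled and 46.6, 50.9 and 29.7 CPM in the control-labelled libraries, and only SCI-labelled library 2 reached into the other group. The log2 change was -0.73 (SE 0.29; edgeR adjusted p = 0.0825), and it passed without control-labelled library 3 (-0.90, 0.00914), by library totals (0.0414), and with limma, on voom weights (0.0213) and on log2 TPM (0.0388 to 0.0453). Its other arm, miR-351-3p, had 2, 2 and 3 counts in SCI-labelled libraries, against 11, 9 and 6 counts in control-labelled libraries, and was too rare to be tested.

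The rows most like each of the 5 miRNAs were sought among 214 others with a mean of at least 100 CPM, by Pearson's r of log2 CPM over the 6 libraries. The libraries fall into 2 labelled groups and share their scaling, so r is given only as a measure of likeness. For miR-99a-5p the closest were miR-409-3p (0.991), miR-1843b-3p (0.986) and miR-708-3p (0.984). miR-409-3p was at 482, 570 and 522 CPM in the SCI-labelled and 322, 276 and 137 CPM in the control-labelled libraries, with control-labelled library 3 lowest in both. For miR-100-5p they were miR-532-5p (0.940), miR-1981-5p (0.937) and miR-380-5p (0.933).

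For miR-125b-5p the closest rows were let-7b-5p (0.897), miR-338-5p (0.895) and miR-3065-3p (0.890). The last 2 were nearly equal in every library, with 1180 and 1156 CPM in control-labelled library 2 as an example. Whether they count separate reads was not tested, so they may not be separate neighbours. let-7b-5p was at 2943, 3129 and 2978 CPM in the SCI-labelled and 3164, 3897 and 3447 CPM in the control-labelled libraries. Control-labelled library 2 was thus highest for let-7b-5p as for miR-125b-5p. For miR-99b-5p they were miR-322-3p (0.909), miR-3535 (0.800) and miR-542-3p (0.773), and for miR-125a-5p miR-219b-5p (0.744), miR-330-3p (0.710) and miR-30c-2-3p (0.698). The likeness was thus weakest for miR-125a-5p, and all 3 of its closest rows were highest in control-labelled library 2, as it was.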

How the data were processed

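The authors deposited whole-number read counts per miRNA, not normalized, and TPM values per library; by comparison of the columns, the deposited TPM equals CPM, with no length term. Bowtie and mm10 are named in the submitters' processing notes; their versions, the mismatches allowed and how multi-matching reads were treated are not stated there. Columns were matched to samples through their descriptions. The series describes 3 mice per group, taken here as 1 library each.

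The test between groups used edgeR 4.0.16 (R 4.3.3): filterByExpr (minimum count 10, 614 of 1482 rows kept), TMM scaling, the robust quasi-likelihood test with no covariate, Benjamini-Hochberg over all rows, threshold 0.05. The standard error is the log2 change over the square root of F. Differences within seed families and between arms used diffSpliceDGE, with copies of a miRNA pooled with their shared 5p arm. Ratios were tested by exact two-sided permutation. No 2 libraries agreed within sampling noise. Alternatives included DESeq2 1.42.0 and limma 3.58.1 on log2 TPM with a pseudocount of 1. Steps were tested on simulated data. The miRNAs and lists were chosen with earlier results of these data known; the text names the 5 miRNAs, their hairpin, cluster and sequence partners, and the 3 rows most like each.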

Additional observations from a re-analysis of the deposited data

How the results depend on the processing

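miR-99a-5p was higher in the SCI-labelled libraries under every setting tried, and it passed with each scaling, filter and tool. Of the 5 miRNAs, 0 to 1 passed when 1 library was left out, while the calls over all rows ran from 141 without SCI-labelled library 3 to 331 without control-labelled library 3, and the log2 change of miR-99a-5p then ran from 0.56 to 0.97. Summing it with miR-100-5p gave 0.54 and no call. The upper quartile moved the median log2 change of all rows by 0.11; relative to that median, miR-99a-5p stood at 0.79 by TMM and 0.80 by the upper quartile. miR-125a-5p turned to -0.0032 by library totals and -0.012 by limma voom, and ran from -0.010 to 0.33 with 1 library left out. Rows of partners with small changes also turned: let-7a-1-3p (0.0022) and let-7c-5p (0.012) by the upper quartile, miR-125b-2-3p by library totals (-0.0023) and miR-99a-3p by limma voom (0.12). With 1 library left out the ranges were -0.031 to 0.32 for miR-125b-2-3p, -1.09 to 0.42 for miR-99a-3p, -0.24 to 0.057 for let-7a-1-3p, -0.41 to 0.064 for let-7a-2-3p, -0.12 to 0.043 for let-7c-5p and -0.37 to 0.034 for let-7e-3p. Of the 3p arms, 0 to 1 passed the arm test with 1 library left out (miR-125a-3p passed without control-labelled library 3 and miR-99a-3p without control-labelled library 1), and miR-125b-1-3p ran from -0.58 to 0.13 in it. The cause of these shifts was not tested. Of the 22 ratios, 17 kept their sign in all alternatives run, which leaving out a library cannot turn where the groups are apart. The other 5 ran from -0.040 to 0.41 (miR-100-5p to miR-125a-5p), -0.12 to 0.21 (miR-99b-5p to miR-125b-5p), -0.20 to 0.024 (miR-125b-5p to let-7c-5p), -0.21 to 0.14 (miR-125a-5p to let-7e-5p) and -0.18 to 0.59 (miR-125b-5p to miR-125b-1-3p) with 1 library left out.

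Same-numbered libraries did not deviate together (correlations of -0.26, 0.17 and -0.18 for numbers 1, 2 and 3). With 3 libraries per group this cannot exclude a shared batch. The numbers are those of the titles, and the headers of the control-labelled columns are numbered otherwise. With the replicate block, 190 of the tested rows passed in place of 242, and miR-99a-5p passed at 0.76. Requiring 10 counts of miR-99a-3p left 2 SCI-labelled libraries and 1 control-labelled one. miR-99a-3p and miR-100-3p had 5 to 47 counts per library, so counting error is large in them; its part in their results was not tested.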

Other observations

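The rare 3p arm of Mir99a had 41 counts in control-labelled library 3, against 5 and 8 in the other control-labelled libraries and 7 to 15 in the SCI-labelled ones. Its 5p arm was at its lowest in that same library, so the count of 5p for each 3p count was 5348 there and 26689 to 58520 in the other 5 libraries. miR-1a-3p and the other skeletal muscle markers were also at their highest in that library. So were the neuron marker miR-124-3p (2008 CPM, against 660 to 812 CPM elsewhere) and the oligodendrocyte marker miR-219a-5p (335 CPM, against 69.7 to 139 CPM). The other neuron and oligodendrocyte markers were not. Whether these go together was not tested.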
